A study of Mus musculus with 6 samples.

Results

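Fatty acid elongases and desaturases were compared between control and Rnf40ΔSC sciatic nerves. The members are 5 elongases (*Elovl1*, *Elovl4*, *Elovl5*, *Elovl6* and *Elovl7*), 2 stearoyl-CoA desaturases (*Scd1* and *Scd2*) and 3 further fatty acid desaturases (*Fads1*, *Fads2* and *Fads3*). They were found by gene symbol and make up 10 of the 24015 genes counted. All 10 passed the filter on low counts, which left 11371 genes to be tested.

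RNA-Seq counts came from 3 control libraries (ctrl, Rnf40 fl/fl) and 3 knockout libraries (cko, Rnf40 fl/fl with the Dhh::Cre transgene), each made from a pool of 3 sciatic nerves of mice at postnatal day 14. Both genotypes carried the floxed alleles and differed in the transgene. The labels give a mixed 129SvJ and C57Bl/6J background, whereas the methods of the study name C3H in place of 129SvJ, and the labels and methods also name different library kits. Dhh::Cre acts in the Schwann cell lineage and removes exons from *Rnf40*, an E3 ligase gene for histone H2B, while the nerve also holds fibroblasts, perineurial, endothelial and immune cells that keep the gene. In such whole-nerve RNA alone, fewer cells of a type and less RNA per cell cannot be told apart. By staining, the study found a comparable share of Schwann cells among nerve cells in both genotypes. It also found slightly more cells per section in Rnf40ΔSC nerves by the end of the second week. RNA per cell was not tested.

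Elongases add carbon pairs to a fatty acyl-CoA in the first and rate-limiting step of a cycle in the endoplasmic reticulum, and desaturases place double bonds in the chain with electrons passed on by cytochrome b5. Palmitate made by fatty acid synthase is lengthened and desaturated by enzymes of these families to saturated and monounsaturated chains of membrane lipids. Myelin is rich in very long saturated and monounsaturated chains, which are carried by its galactolipids and sphingomyelin.

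Library totals were 1317167, 1992622 and 2468765 counts for ctrl and 2184268, 1459387 and 2186710 counts for cko, in the order of the replicate numbers, which all values per library follow. Normalised counts below are counts scaled by TMM to a common library size. *Rnf40* had 127, 123 and 138 normalised counts in ctrl and 87.7, 87.9 and 91.5 in cko libraries. Every cko library lay below every ctrl library, and transcripts that lack the floxed exons can still be counted, so that the remaining level is not a measure of functional RNA. The log2 fold change of *Rnf40*, given as cko over ctrl throughout, was -0.54 (SE 0.14, adjusted p = 0.00242, edgeR), and -0.27 and not past the limit when libraries were scaled by total counts. Its partner in the ligase, *Rnf20*, had 0.44 and passed an adjusted p of 0.05, but not with DESeq2 (0.45 without and 0.43 with a prior) or without ctrl replicate 3 (0.37) or cko replicate 1 (0.40). Among 9 Schwann cell markers, *Pmp22* was the most abundant. In lists this means the highest mean normalised count over the 6 libraries without regard to length. All 9 were tested, as were all listed endothelial, fibroblast, perineurial and skeletal muscle markers, so passing the filter does not by itself identify the tissue. The Schwann cell markers summed to 72389, 80887 and 77572 TMM-scaled CPM (counts divided by library size) in ctrl and 23196, 21753 and 20847 in cko libraries. Most of these sums came from the myelin genes *Pmp22* and *Mbp*, with log2 fold changes of -2.13 and -1.63, while the median of the list was -0.79 and its highest value 1.16 (*Ncam1*).

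Of the 10 members, 7 were called lower in cko nerves and 0 higher. Calls were made at an adjusted p of up to 0.05 in edgeR's quasi-likelihood test for genes with a log2 fold change of 0.8 or more in size whose mean over the 6 libraries reached 20 normalised counts. Over all 11371 genes tested the same rule called 4.99% lower and 3.65% higher. At an adjusted p of at most 0.05 alone, the members again counted 7 lower and 0 higher, beside 16.2% and 15.4% of all genes. All 7 had every cko library below every ctrl library, as did 21.6% of all genes, and 0 members had every cko library above, as did 22% of all genes. The median log2 fold change was -1.58 over the 10 members and -0.003 over all genes tested. Scaled by total counts, which moved the median of all genes by 0.27, 6 members were called lower, since *Elovl7* fell short of the fold limit, and a limit of 1 also gave 6. Together the members took 0.890%, 0.959% and 0.947% of the counts in ctrl and 0.397%, 0.375% and 0.382% in cko libraries.

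**Figure D1:**
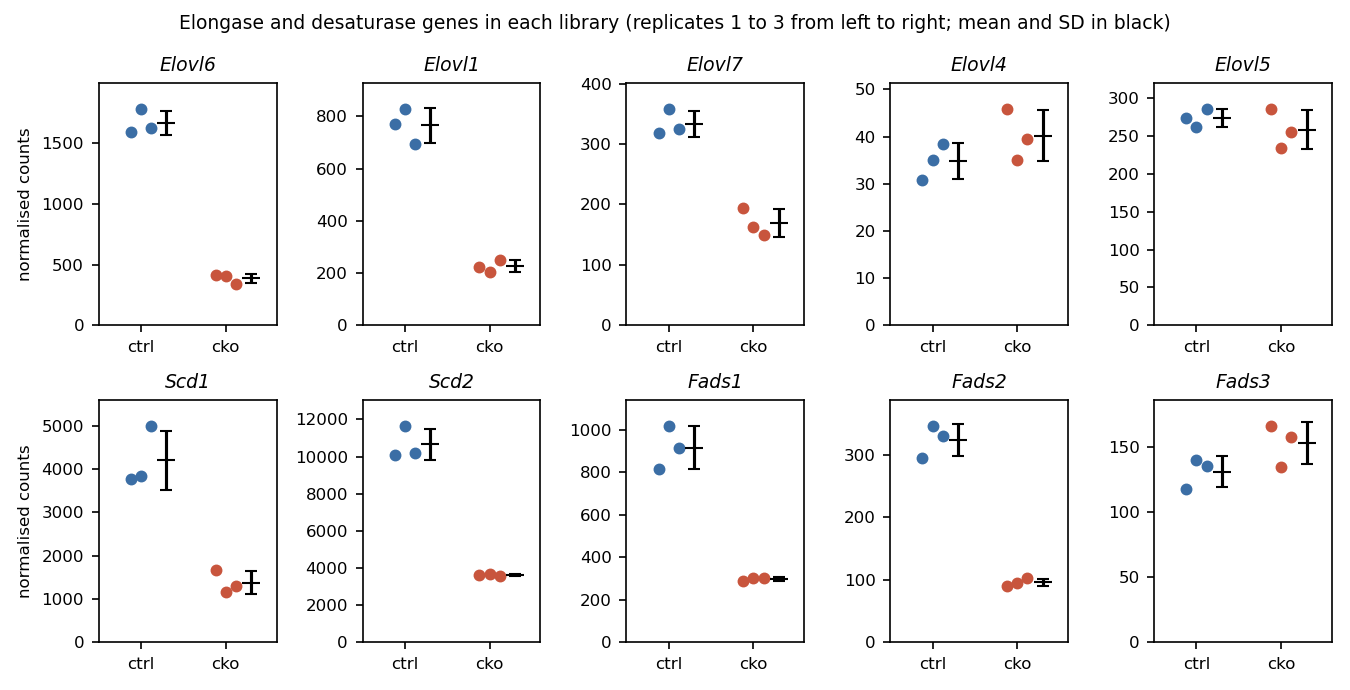
Normalised counts of the 10 genes in each library (y axis, from 0), with ctrl in blue, cko in red and the mean and SD (n = 3) in black. In 7 genes all cko points lie below all ctrl points, and in *Elovl4*, *Elovl5* and *Fads3* the genotypes overlap, though total-count scaling puts *Fads3* past the adjusted p limit as higher.

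*Elovl6* (chr3:129235304-129341413 in mm9, plus strand) encodes the elongase that turns palmitate into stearate. It had 1593, 1784 and 1630 normalised counts in ctrl and 411, 405 and 340 in cko libraries. The highest cko library lay far below the lowest ctrl library, and cko nerves held 23.1% of the ctrl mean. The log2 fold change was -2.12 (SE 0.10, adjusted p = 6.46e-20 by edgeR), which ranked 52 from the lowest of the 11371 genes tested.

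*Elovl1* (chr4:118100698-118105558, plus strand), which encodes an elongase of saturated and monounsaturated very long chains, had 772, 828 and 695 normalised counts in ctrl and 224, 203 and 250 in cko libraries. The genotypes did not overlap, and the spread within each was small against the gap between them. The log2 fold change was -1.76 (SE 0.10, adjusted p = 1.18e-16 by edgeR). The annotation places exons of *Cdc20* over 53 bases of its exons on the other strand, and whether counting used the strand is not given in the sources used here.

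*Elovl7* (chr13:109004598-109077299, plus strand), which encodes another elongase of saturated chains, had 318, 358 and 325 normalised counts in ctrl and 195, 163 and 150 in cko libraries. All cko libraries were lower, by less than in *Elovl1* and *Elovl6*. Its log2 fold change was -0.98 (SE 0.11, adjusted p = 4.54e-09 by edgeR). Total-count scaling gave -0.71, short of the limit of 0.8 but still past the adjusted p limit.

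*Elovl4* (chr9:83672300-83699912, minus strand), whose product extends very long chains further, had 30.9, 35.0 and 38.5 normalised counts in ctrl and 45.9, 35.1 and 39.6 in cko libraries. It was the least abundant member per length, and its genotypes overlapped. The log2 fold change was 0.20, with a 95% confidence interval from -0.24 to 0.65 (adjusted p = 0.527 by edgeR). The gene had 20 to 57 counts per library.

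*Elovl5* (chr9:77765171-77832326, plus strand), which encodes the elongase of polyunsaturated chains, had 275, 262 and 286 normalised counts in ctrl and 286, 234 and 256 in cko libraries. The genotypes overlapped, with cko replicate 1 level with the highest ctrl library. Its log2 fold change was -0.08 (adjusted p = 0.599 by edgeR) with a 95% confidence interval from -0.29 to 0.13. The sign turned under total-count scaling, to 0.19.

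*Scd1* (chr19:44468941-44482199, minus strand) and *Scd2* (chr19:44368166-44381354, plus strand) encode stearoyl-CoA desaturases, which form oleate and palmitoleate. *Scd2* had 10104, 11632 and 10210 normalised counts in ctrl and 3606, 3667 and 3579 in cko libraries. It was the most abundant member in every library, and its cko libraries lay close together at 34.0% of the ctrl mean. The log2 fold change was -1.56 (SE 0.07, adjusted p = 3.08e-19 by edgeR).

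*Scd1* had 3770, 3846 and 4989 normalised counts in ctrl and 1675, 1167 and 1298 in cko libraries. Ctrl replicate 3 and cko replicate 1 were the high libraries of their groups, and the genotypes did not overlap. The log2 fold change of *Scd1* was -1.61 (SE 0.17, adjusted p = 0.000609 by edgeR). *Scd1* is also abundant in adipose tissue, and ctrl replicate 3 was the library with the highest summed adipocyte markers. Ctrl replicates 1 and 2 stood in opposite order in *Scd1* and in these markers. *Scd1* and *Scd2* together held between 75.3% and 77.7% of all member counts in each library.

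*Fads1* (chr19:10257378-10271360, plus strand) and *Fads2* (chr19:10138654-10175993, minus strand) encode the front-end desaturases of polyunsaturated fatty acid synthesis. *Fads1* had 813, 1017 and 914 normalised counts in ctrl and 289, 305 and 301 in cko libraries. The cko libraries were nearly level and all below ctrl, and the log2 fold change was -1.62 (SE 0.10, adjusted p = 3.73e-16 by edgeR). *Fads2* had 295, 345 and 330 normalised counts in ctrl and 90.1, 94.9 and 102 in cko libraries. It too showed no overlap, with a log2 fold change of -1.76 (SE 0.11, adjusted p = 3.23e-15 by edgeR).

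*Fads3* (chr19:10116038-10134161, plus strand), whose product desaturates sphingoid bases, had 117, 140 and 136 normalised counts in ctrl and 166, 135 and 157 in cko libraries. Cko replicate 2 lay within the ctrl range, so the genotypes overlapped. Its log2 fold change was 0.22, with a 95% confidence interval from -0.04 to 0.48 (adjusted p = 0.196 by edgeR). After total-count scaling it was 0.49 (adjusted p = 0.00221 by edgeR, range over all alternatives 0.00221 to 0.445), which put *Fads3* among the genes past the limit as higher.

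**Figure D2:**
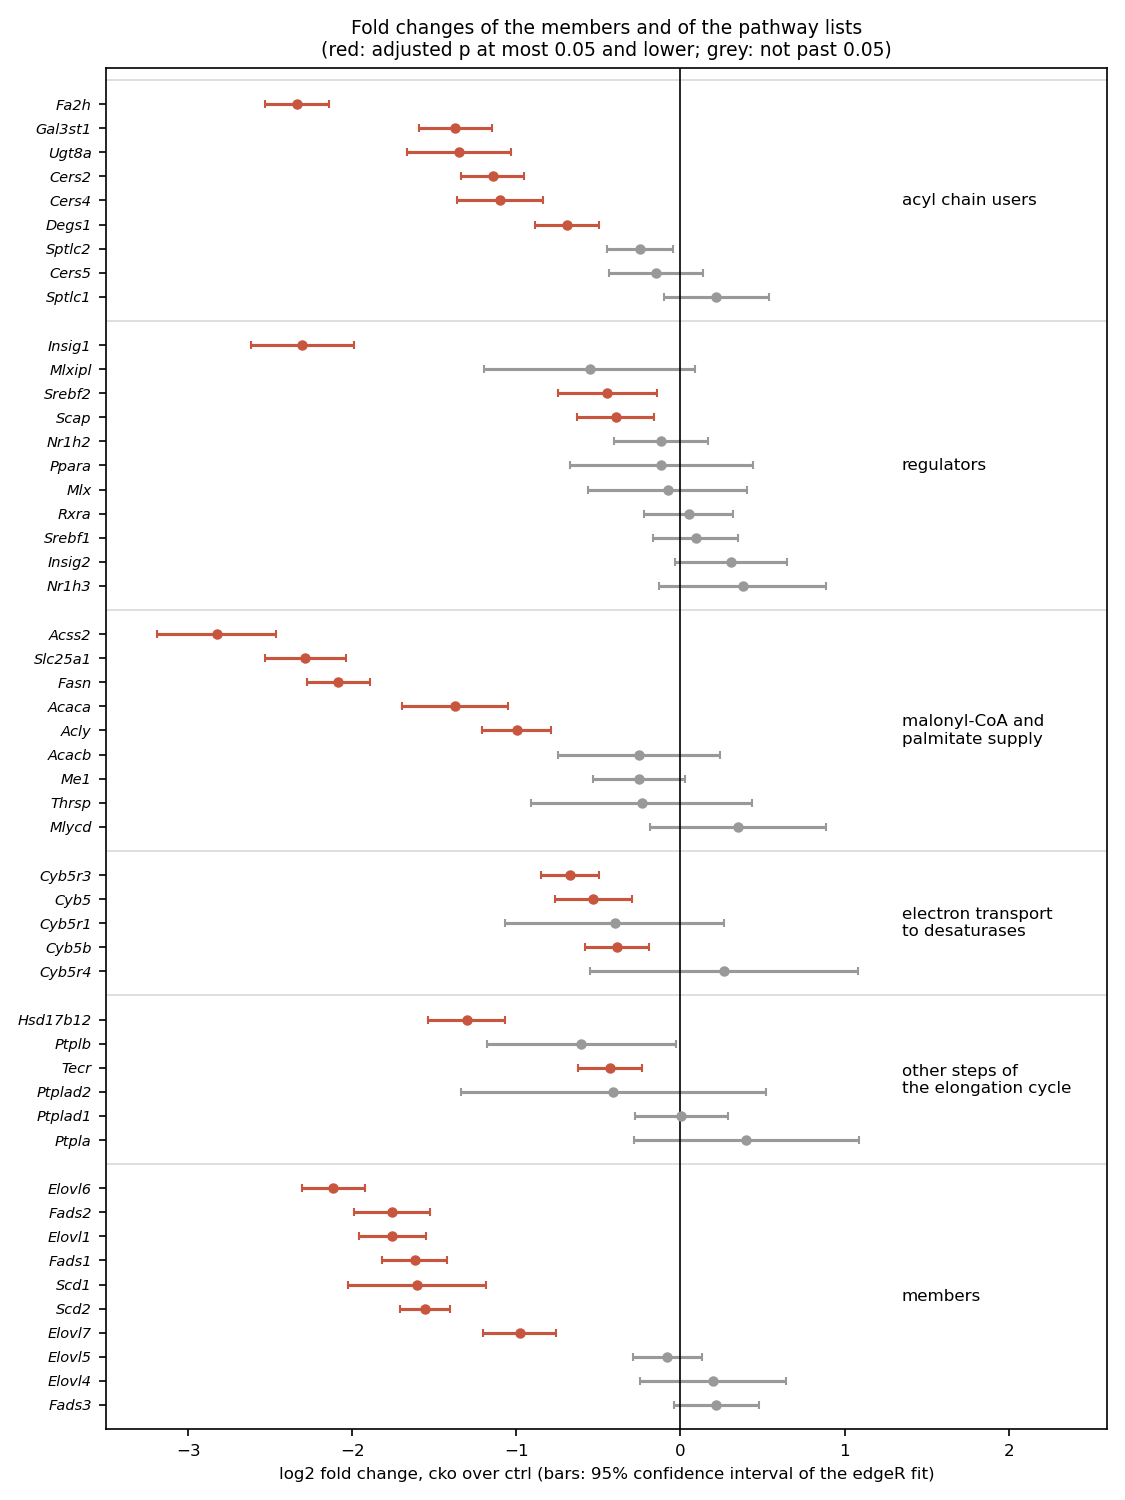
Log2 fold changes (x axis, cko over ctrl) of the members and of the tested genes of 5 pathway lists, with 95% confidence intervals of the edgeR fit. Points in red passed an adjusted p of 0.05 and were lower, which holds for 7 of 10 members and for 0 genes in the opposite direction after TMM scaling. Total-count scaling moves the median of all genes up by 0.27. It puts *Fads3* and, from the lists, *Srebf1*, *Insig2*, *Nr1h3* and *Sptlc1* past the limit as higher.

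Levels of different genes were compared as TMM-scaled CPM per kb of annotated exon. In ctrl nerves *Scd2* came first at 1042 ± 83.5 (SD, n = 3), followed by *Scd1* at 464 ± 75.3. *Elovl1* at 149.7 ± 13.1, *Elovl6* at 149.6 ± 9.07 and *Fads1* at 141 ± 15.7 came next and overlapped, though with the longest transcript as length *Elovl1* stood at 225 and apart from *Elovl6*. *Fads2* at 114 ± 9.14 lay below them in all 3 libraries, and *Elovl5*, *Elovl7*, *Fads3* and *Elovl4* followed at 41.5, 32.7, 21.4 and 6.08, each separate from the next.

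In cko nerves *Scd2* at 354 ± 4.41 (SD, n = 3) and *Scd1* at 152 ± 29.1 kept the first places. *Fads1* at 46.0, *Elovl1* at 44.1 and *Elovl5* at 39.2 then overlapped with their neighbours in the order, as did *Elovl6* at 34.6 and *Fads2* at 33.9. *Fads3* at 24.9 ± 2.62 stood above *Elovl7* at 16.6 ± 2.27 in cko nerves, the reverse of their order in ctrl nerves. *Elovl5* moved in the order from rank 7 to rank 5 without a change of its own past the test. These ranks depend on the annotated lengths. The annotation gives *Fads2* 1508 bases of exon, also as its longest transcript, and a longer true transcript would lower its level per kb and could lower its rank. With the longest transcript in place of all exons *Elovl1*, *Elovl5* and *Fads1* took ranks 3, 4 and 5 in cko nerves.

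The ratio of 2 paralogs within a library does not depend on how libraries are scaled. Of the 14 pairs within a family, 12 had ratios that did not overlap between the genotypes, against 41.7% of all pairs of the genes tested. A pair of a gene that fell and a gene that did not is expected to separate. The pairs share genes, so the 12 are not independent of each other. Pairs among *Elovl1*, *Elovl6* and *Elovl7*, which all fell, and the pair of *Elovl4* with *Elovl5*, which did not pass, were separate too. Each of the 12 had a 2-sided exact permutation p of 0.1, the smallest that 3 against 3 libraries allow, and 0.117 after adjustment over the 14 pairs. No pair could therefore pass 0.05, and the ratios restate the fold changes above on a scale free of library size.

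The log2 ratio of *Elovl5* to *Elovl6* was -1.78, -2.01 and -1.75 in ctrl and 0.23, -0.03 and 0.35 in cko libraries. Per kb of annotated exon, *Elovl6* exceeded *Elovl5* in every ctrl library, and the genes were near parity in cko libraries, a 4.08-fold change of the ratio. This parity depends on length. With the longest transcript, *Elovl5* lay above *Elovl6* in every cko library, at 54.8, 44.9 and 49.1 against 36.9, 36.3 and 30.5. In normalised counts without regard to length, *Elovl6* lay above *Elovl5* in each of them. The log2 ratio of *Fads2* to *Fads3* was 2.44, 2.42 and 2.40 in ctrl and 0.24, 0.61 and 0.50 in cko libraries. The ctrl libraries agreed closely, and the ratio was 3.91-fold lower in cko nerves. *Fads3* made up 7.69%, 7.56% and 7.90% of the summed *Fads* level per kb in ctrl and 26.1%, 21.4% and 23.7% in cko libraries. These shares rest on the annotated 1508 bases of *Fads2* and would be higher with a longer *Fads2*, whereas the difference of a log2 ratio between genotypes does not depend on length.

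The pairs that overlapped were those of *Scd1* with *Scd2* and of *Fads1* with *Fads2*. The log2 ratio of *Scd1* to *Scd2* was -1.25, -1.42 and -0.86 in ctrl and -0.93, -1.48 and -1.29 in cko libraries. The genotypes overlapped, with a difference of -0.06 (exact permutation p = 0.7), whose sign turned when ctrl replicate 3 or cko replicate 2 was left out. The log2 ratio of *Fads1* to *Fads2* was 0.27, 0.36 and 0.27 in ctrl and 0.48, 0.48 and 0.36 in cko libraries, overlapping at 0.36 (exact permutation p = 0.2). *Elovl6* fell more than *Elovl7*, as the log2 ratio of *Elovl6* to *Elovl7* went from 2.19, 2.18 and 2.20 in ctrl to 0.95, 1.18 and 1.05 in cko libraries.

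**Figure D3:**
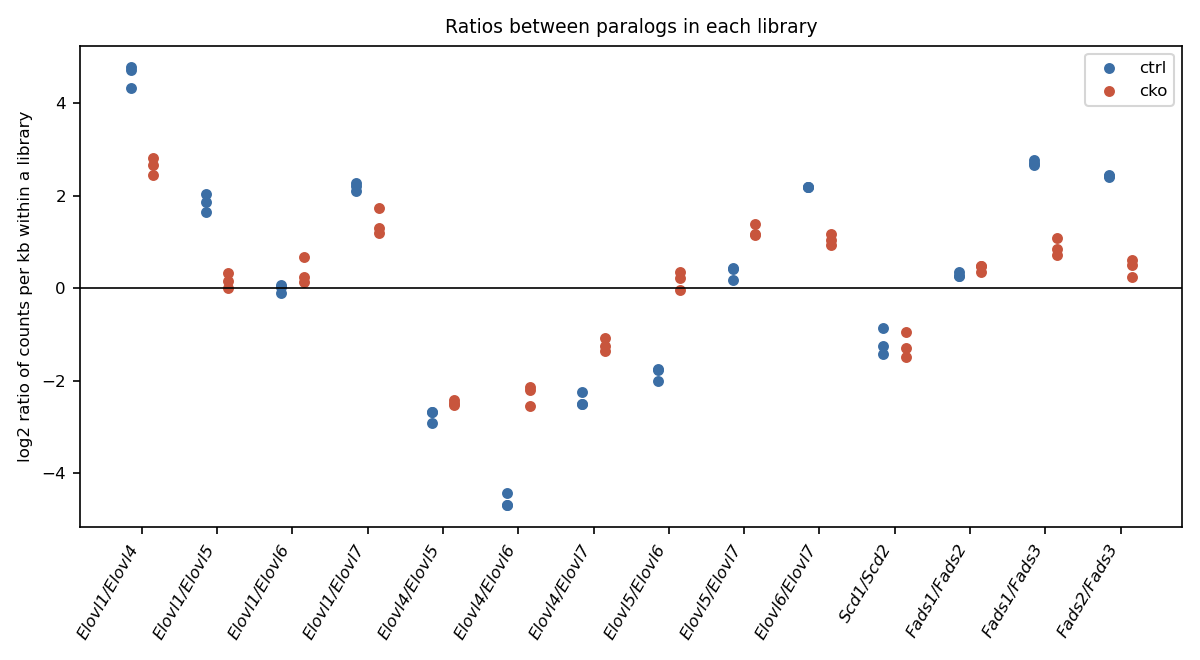
Log2 ratio of counts per kb (y axis) for each of the 14 pairs of paralogs, with 1 point per library, ctrl in blue and cko in red. The genotypes overlap in *Scd1*/*Scd2* and *Fads1*/*Fads2* and are separate in the other 12 pairs.

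The *Fads* genes lie next to each other on chromosome 19, with *Fads3* 4.49 kb from *Fads2* and *Fads2* 81.4 kb from *Fads1*. *Fads3* did not pass the test, and *Fads2* on one side of it fell. On the outer sides, *Rab3il1*, 3.17 kb from *Fads3* and so nearer to it than *Fads2*, had a value of 0.08 on the log2 scale (adjusted p = 0.779 by edgeR), and *Fen1* next to *Fads1* had 1.05 on 6 to 26 counts per library (adjusted p = 0.0394 by edgeR). Within 150 kb of the cluster, 5 other coding genes were tested, of which 2 passed as lower and 1 as higher. Of these, *Dagla*, named after its values were seen, was called lower at -0.81. Within the same distance of *Scd1* and *Scd2*, 3 other genes were tested and 0 passed, and *Scd3* and *Scd4* had at most 5 counts in any library.

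**Figure D4:**
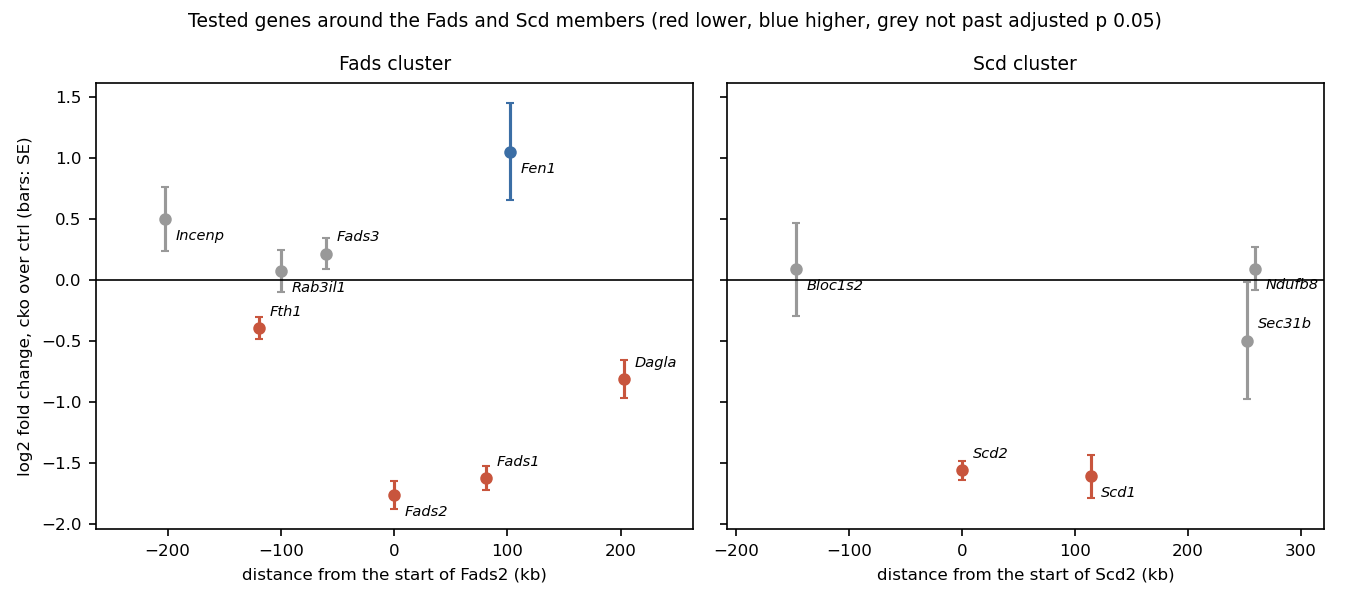
Log2 fold change (y axis, cko over ctrl, bars show the SE) of the tested genes within 150 kb of the *Fads* and *Scd* clusters against the distance of each gene's start from that of *Fads2* or *Scd2* (x axis, kb). *Fads1* and *Fads2*, and *Scd1* and *Scd2*, lie lowest, while *Fads3* lies near 0 under TMM scaling and at 0.49 under total-count scaling.

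Promoter windows of 300 bases (250 before to 50 after the start) from RefSeq, build GRCm38.p6, were matched for 7 of the 10 members, with 8 windows in all. *Scd1*, *Scd2* and *Fads1* were not matched. The windows of the elongase with the largest fall and the polyunsaturated elongase that did not pass, and of the neighbours *Fads2* and *Fads3*, are shown 5′ to 3′ on the gene's strand. They are *Elovl6* (chr3:129532136-129532435, plus strand), *Elovl5* (chr9:77917115-77917414, plus strand), *Fads2* (chr19:10101454-10101753, minus strand) and *Fads3* (chr19:10041298-10041597, plus strand). Capitals mark matches, on either strand, to the motifs spelled out after the sequences.
Elovl6: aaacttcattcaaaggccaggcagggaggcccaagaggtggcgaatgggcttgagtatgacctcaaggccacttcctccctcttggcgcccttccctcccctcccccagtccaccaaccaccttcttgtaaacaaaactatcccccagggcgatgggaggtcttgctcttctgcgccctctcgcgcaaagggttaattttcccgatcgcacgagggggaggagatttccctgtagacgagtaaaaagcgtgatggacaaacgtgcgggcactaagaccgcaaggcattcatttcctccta
Elovl5: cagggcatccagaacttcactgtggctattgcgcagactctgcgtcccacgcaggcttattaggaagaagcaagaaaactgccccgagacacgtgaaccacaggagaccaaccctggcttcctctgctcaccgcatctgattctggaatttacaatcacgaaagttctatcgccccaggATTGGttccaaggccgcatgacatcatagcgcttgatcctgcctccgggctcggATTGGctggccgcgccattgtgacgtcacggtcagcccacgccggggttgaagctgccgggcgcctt
Fads2: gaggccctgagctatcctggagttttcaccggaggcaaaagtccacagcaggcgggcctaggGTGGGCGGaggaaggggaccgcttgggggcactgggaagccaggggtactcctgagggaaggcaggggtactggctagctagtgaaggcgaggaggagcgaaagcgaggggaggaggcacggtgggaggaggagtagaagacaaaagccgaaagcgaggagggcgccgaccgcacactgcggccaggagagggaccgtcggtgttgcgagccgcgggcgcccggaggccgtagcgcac
Fads3: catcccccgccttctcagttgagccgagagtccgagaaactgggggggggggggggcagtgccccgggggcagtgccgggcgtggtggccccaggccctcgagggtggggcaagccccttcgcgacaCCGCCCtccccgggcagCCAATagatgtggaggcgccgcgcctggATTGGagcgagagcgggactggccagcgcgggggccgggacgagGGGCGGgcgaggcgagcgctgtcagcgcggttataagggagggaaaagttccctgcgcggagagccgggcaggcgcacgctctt

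The NF-Y box CCAAT was found in 4 of the 7 members (*Elovl1*, *Elovl4*, *Elovl5* and *Fads3*), and 37.4% of all 32851 windows held it. The GC box GGGCGG was found in 5 of 7 (*Elovl1*, *Elovl4*, *Elovl7*, *Fads2* and *Fads3*), against 35.7% of all windows. The core of the Egr site, GTGGGCG, was found in *Fads2* alone, where it overlapped the GC box, against 8.0% of all windows. The sterol regulatory element type TCACNCCAC was found in 0 of the 8 windows and in 1.24% of all windows. *Elovl6* held 0 of the 4 motifs in its window.

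The elongases work in a cycle with further enzymes. Of 6 tested genes of the other steps, 2 passed as lower and 0 as higher, with a median log2 fold change of -0.42. *Hsd17b12*, which encodes the ketoacyl-CoA reductase, had 258, 295 and 261 normalised counts in ctrl and 113, 97.2 and 117 in cko libraries, so it fell alongside *Elovl1* and *Elovl6*. Its log2 fold change was -1.30, while the most abundant gene, *Tecr*, which encodes the enoyl-CoA reductase, had -0.43 and fell short of the adjusted p limit after total-count scaling. *Ptpla* (*Hacd1*), a dehydratase gene, had the highest value of the list at 0.40, which did not pass.

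For the electron transport that the Scd and Fads enzymes need, 3 of 5 tested genes passed as lower and 0 as higher, with a median of -0.40, and 1 passed as lower after total-count scaling. The most abundant, *Cyb5r3*, which encodes cytochrome b5 reductase, had a log2 fold change of -0.67, smaller in size than that of any desaturase that fell. *Cyb5r4* had 0.27 and did not pass, with a sign that turned without cko replicate 1. *Cyb5r2*, too low for the main test at 2, 3 and 3 counts in ctrl and 20, 6 and 15 in cko libraries, was tested and passed as higher without ctrl replicate 1, 2 or 3 or cko replicate 2.

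Malonyl-CoA and palmitate are the substrates of the first elongation steps. Of 9 tested genes for their supply, 5 passed as lower and 0 as higher, with a median of -0.999. *Fasn*, which encodes fatty acid synthase, had 1568, 1599 and 1509 normalised counts in ctrl and 363, 330 and 406 in cko libraries. This is a fall of the size seen in *Elovl6*, with a log2 fold change of -2.09. *Acss2*, for acetyl-CoA synthetase, was lowest at -2.83, and *Mlycd*, for malonyl-CoA decarboxylase, highest at 0.35 without passing.

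Among 11 regulators of these genes, 3 passed as lower and 0 as higher, and the median was -0.12. This balance depends on scaling, as 1 passed as lower and 3 as higher with total counts. *Insig1*, which encodes a sterol-sensitive retention protein of the SREBP pathway, had the lowest value at -2.31. *Srebf2*, the most abundant over all 6 libraries though below *Insig1* in each ctrl library, had -0.44 (adjusted p = 0.0255 by edgeR), which did not pass without ctrl replicate 2 (-0.41) or 3 (-0.42), without cko replicate 1 (-0.41) or 2 (-0.29), or after total-count scaling (-0.17). *Nr1h3* was highest at 0.38 without passing, and passed at 0.65 (adjusted p = 0.0355 by edgeR) after total-count scaling. Without ctrl replicate 2 or cko replicate 2, 1 regulator (*Insig1*) passed as lower, and without cko replicate 3, 1 (*Insig2*) passed as higher. Of 9 tested genes that use long acyl chains for sphingolipids and galactolipids, 6 passed as lower and 0 as higher, with a median of -1.10. *Fa2h*, for fatty acid 2-hydroxylase, was lowest at -2.34, *Ugt8a*, for galactosylceramide synthesis, was the most abundant, and *Sptlc1* was highest at 0.22 without passing, though it passed as higher at 0.49 (adjusted p = 0.0128 by edgeR) when scaled by total counts.

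The other paralogs were too low to be tested. *Elovl2* had 1, 2 and 0 counts in ctrl and 5, 11 and 21 in cko libraries. The ctrl libraries were at or under a floor of 3 counts and all cko libraries above it. *Elovl3* had 0 counts in every library, which allows up to 3 counts in each. *Fads6* had 10, 14 and 4 counts in ctrl and 4, 6 and 1 in cko libraries, and the genotypes overlapped.

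Marker lists of other cell types are given beside these results because the nerve is a mixture. All lists are given as summed TMM-scaled CPM in ctrl and then cko replicates 1 to 3. Of 12 adipocyte markers 11 were tested, 5 passed as lower and 0 as higher, and the sums were 2750, 2057 and 3559 in ctrl and 1950, 1747 and 1668 in cko libraries. *Fabp4* was the most abundant over all 6 libraries, with *Car3* above it in ctrl replicates 1 and 3 and cko replicate 3, and *Ucp1* had 47 counts in ctrl replicate 3, 22 in cko replicate 3 and at most 2 in the other libraries. The adipocyte sum and *Scd1* were both highest in ctrl replicate 3, and within cko both were highest in replicate 1. Between ctrl replicates 1 and 2, and between cko replicates 2 and 3, their orders were opposite.

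Of 12 skeletal muscle markers all were tested and 0 passed, with *Myh4* the most abundant at a log2 fold change of -2.16. Their sums were 4493, 3415 and 2509 in ctrl and 98.7, 251 and 3190 in cko libraries, so cko replicate 3 stood with ctrl. Without cko replicate 3, 10 of these markers passed as lower, with *Myh4* at -5.23 (adjusted p = 0.00842 by edgeR, range over all its alternatives 0.00842 to 0.520).

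Of all genes tested, 16.2% passed as lower and 15.4% as higher. Macrophage (4 of 7 lower, *Csf1r* most abundant), endothelial (4 of 6, *Cdh5*), fibroblast (5 of 6, *Col1a2*) and perineurial markers (3 of 4, *Ncmap*) also passed as lower in part, with 0 higher in each list. Some of these falls depend on scaling, as total counts left 2 macrophage, 1 endothelial, 1 fibroblast and 2 perineurial markers past the limit as lower and put 1 fibroblast marker past it as higher, and *Cdh5* went from -0.51 to -0.24 (adjusted p = 0.0598 by edgeR). In the macrophage, perineurial and skeletal muscle lists, another gene (*Mrc1*, *Cldn1* and *Acta1*) was first in some libraries. *Ncmap*, though placed in the perineurial list, is a myelin gene of Schwann cells. Its log2 fold change was -2.01, beside a list median of -0.54. The perineurial sum follows this gene in large part and is not a measure of perineurial cells. The macrophage sums ran from 279 to 343 in ctrl and 204 to 222 in cko libraries. In the same order, endothelial sums ran from 693 to 788 and from 501 to 631. Fibroblast sums ran from 29154 to 31742 and from 21118 to 22575, and those of the perineurial list from 1488 to 1660 and from 612 to 700.2. Of the Schwann cell markers 7 of 9 passed as lower and 2 as higher. In each of these 7 marker lists, 0 genes were at 0 in every library. The part of each cell type in the members' fall was not tested.

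**Figure D5:**
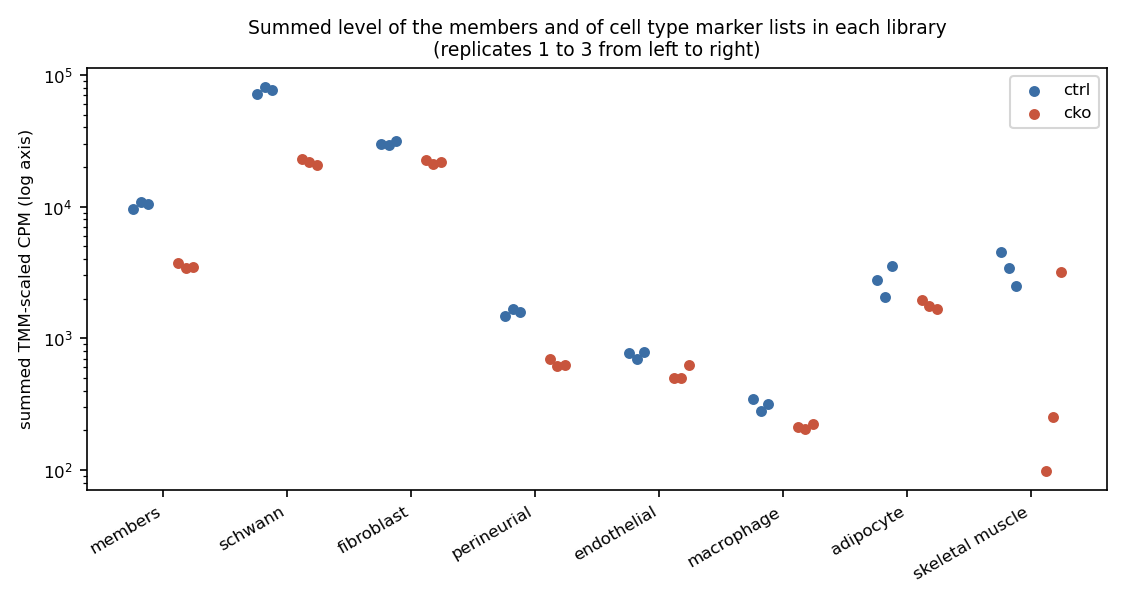
Summed TMM-scaled CPM (y axis, log scale) of the 10 members and of 7 marker lists in each library, ctrl in blue and cko in red. Members and Schwann cell markers are lower in every cko library, adipocyte sums are lower by less, and skeletal muscle sums are spread over a wide range within cko.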

How the data were processed

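Whole-number counts of reads per gene were used as the authors deposited them, without normalization. Per the methods, the authors aligned reads to mm9 with TopHat, and assigned uniquely mapped reads with HTSeq. The annotation and strand setting are not given in the sources used here. The submitters' processing notes name Bowtie2 2.1.0 in addition. Genotype and replicate number came from the labels.

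Tests used edgeR 4.0.16 under R 4.3.3 (filterByExpr, TMM, robust quasi-likelihood fit, genotype alone), with Benjamini-Hochberg adjustment over all 11371 genes tested. Base means are on the geometric mean of the effective library sizes. An arithmetic mean was run first and called 574 genes lower and 424 higher, and the geometric mean, which called 567 and 415, was taken after the data had been seen because it is the scale that earlier results of these data used. Dispersions were also first estimated with the robust option, which left these counts unchanged. Alternatives used RLE or total-count scaling, DESeq2 1.42.0 with and without a prior, other filters and limits, the replicate number as a block and each library left out. The test was also run on simulated counts, whose outcome is not given here. Positions and exon lengths are from GENCODE vM1 of mm9.

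Paralog ratios had 0.5 added to each count and were tested by exact permutation of libraries in SciPy. p-values measure the spread between libraries of pooled nerves. Floors cover counting error only. The genes named from a pathway list are those with the lowest and highest fold change and the most abundant. From a marker list the most abundant is named. Genes that lead a list in single libraries, make up most of its sum or pass only under an alternative are also named. *Ncam1* is named for the highest fold change among the Schwann cell markers, and *Ucp1* and *Aif1* outside this rule. The members, their nearest neighbours, *Rnf40* and *Rnf20* are named as well. The members and lists were chosen with earlier results of these data known. One Schwann cell marker of the list is not reported here, and counts and sums of that list are without it.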

Additional observations from a re-analysis of the deposited data

How the results depend on the processing

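The number of members called lower was 7 under every alternative except total-count scaling and a log2 fold change limit of 1 (6 each, without *Elovl7*). The 7 genes that fell kept their direction and an adjusted p of at most 0.05 in all 15 alternative fits. Of these, 2 (base means on the arithmetic mean library size, and robust dispersions) were run first and replaced by the main settings after seeing the data, and they changed no member's call. Total-count scaling moved the calls over all genes to 261 lower and 1008 higher, put 1 member past the adjusted p limit as higher (*Fads3*), reversed *Elovl5* to 0.19, and left 1 gene lower in each of the elongation cycle, electron transport and regulators, with 3 regulators (*Nr1h3* among them) and 1 acyl chain user (*Sptlc1*) higher, as it shifts all genes by 0.27. It also left 2 macrophage, 1 endothelial and 1 fibroblast marker lower and 1 fibroblast marker higher. Of the electron transport genes, 1 (*Cyb5r2*) passed as higher with DESeq2 and a prior and with no filter on low counts. With each library left out in turn, this number was 0 to 1, regulators passing as lower numbered 1 to 3 and as higher 0 to 1, and the *Scd1* to *Scd2* difference ran from -0.21 to 0.10, including 0.10 without ctrl replicate 3 and 0.07 without cko replicate 2. Skeletal muscle markers passing as lower numbered 1 with no filter and 0 to 10 with each library left out, the 10 without cko replicate 3. DESeq2 with or without a prior put 2 macrophage markers past the adjusted p limit as lower. Leaving out each library put 3 to 5 fibroblast markers past it as lower and 1 to 2 Schwann cell markers as higher. *Cyb5r4* ran from -0.032 (without cko replicate 1) to 0.53. The cause of these changes was not tested. With the longest transcript as length, *Elovl1*, *Elovl5* and *Fads1* took ranks 3, 4 and 5 in cko nerves.

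The replicate block called 566 genes lower and 408 higher, with 7 members lower, and changed no member's call. Same-numbered libraries did not deviate together (correlations -0.09, -0.02 and -0.06), so pairing is not established.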
